A study of Homo sapiens with 8 samples.

Results

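The 52 genes described here encode the proteins that license, copy and proofread DNA in S phase, supply its building blocks and time its start. They were chosen by name, and each gene was represented by the transcript row with the highest mean level. All 52 were found among the 27427 genes of the all-read table, and 48 were found in the table of converted reads, which did not list POLA1, PRIM1, CCNE1 or CCNE2. RNA came from NALM6, a long-established human B-cell precursor leukaemia line engineered to overexpress HMGN1, a protein that binds nucleosomes. The assay was SLAM-seq, in which cells build 4-thiouridine into new RNA and the alkylated base is then read as C where the genome has T.

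The 8 libraries fall into 3 groups. The 3 vehicle libraries came from the line carrying wild-type HMGN1 and received no doxycycline for 6 h. The 3 induced wild-type libraries came from the same line with 100 ng/ml doxycycline for 6 h. The 2 induced mutant libraries came from a line carrying HMGN1 with the S20,24E changes, labelled as deficient in nucleosome binding, with the same doxycycline dose and time. All 8 cultures received 100 µM 4-thiouridine for the last 5 h, and 4 µg of RNA entered each thiol modification. The mutant line without doxycycline was not analysed here, so the mutant line and doxycycline cannot be told apart in the comparison with vehicle. Neither can doxycycline and HMGN1 in the wild-type line. Between induced mutant and induced wild type, the S20,24E changes, the line and the level of HMGN1 cannot be told apart. The labels call the libraries biological replicates without naming separate cultures, so each p-value measures the spread between these libraries.

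DNA replication starts when CDC6 and CDT1 load the MCM2-7 helicase at origins in G1. CDC45 and GINS then join it to form the active helicase, and DNA polymerases held by the PCNA clamp copy both strands. E2F transcription factors switch on many of these genes ahead of S phase, and the genes are a standard readout of how actively a population is dividing. In bulk RNA, fewer cells in S phase and less RNA per cell cannot be told apart.

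Library totals recovered from the deposited values ran from 7985544 to 17747784 reads, of which 3433182 to 7854689 lay in gene rows. The read-weighted conversion rate over gene rows, the share of T bases read as C, was 2.64% in vehicle library A and 5.20% in induced wild-type library C, the lowest and highest of the 8 libraries. HMGN1 itself was at 163 ± 24.4 CPM (reads scaled to the library total; SD, n = 3) with vehicle, 262 ± 51.0 (n = 3) in the induced wild type and 211 ± 16.7 (n = 2) in the induced mutant. Its conversion rate was 1.47% ± 0.37, 4.82% ± 2.04 and 3.32% ± 1.87 in the same order. The exact two-sided permutation test gave p = 0.1 for both measures of the wild type against vehicle, the smallest p that these group sizes allow. In converted reads, deposited as FPKM, HMGN1 read 2.64, 6.04 and 5.44 in vehicle libraries A, B and C. It read 7.75, 5.39 and 4.94 in the induced wild type, and 4.15 and 2.62 in the induced mutant. Both induced groups thus overlapped vehicle in converted reads, and the mutant mean was below that of vehicle. All 12 precursor B-cell markers had a mean of at least 10 CPM, while the 4 T-cell and 3 erythroid markers found were under 1 CPM. Of 5 myeloid markers, CD14 and MPO were under 1 CPM, LYZ and CD33 had means of 1.47 and 2.60 CPM, and CSF1R was at 338 to 512 CPM.

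Promoter sequences are shown for the 6 members that the values below turn on: CDT1, E2F2 and UHRF1 had the highest conversion rates with vehicle, and E2F1, LIG1 and POLE were among the members with the smallest unadjusted p. Each run holds the 150 bases before an annotated start site, read 5′ to 3′ on the gene's strand from RefSeq promoters on GRCh38.p14. Capitals mark matches to the E2F motif, searched as TTTGGCGC, TTTCCCGC, TTTCGCGC or TTTGCCGC on both strands. UHRF1 has other annotated start sites, whose runs (chr19:4909994-4910143 and chr19:4910217-4910366) held 0 matches and are not shown.
CDT1 (chr16:88803639-88803788, plus strand): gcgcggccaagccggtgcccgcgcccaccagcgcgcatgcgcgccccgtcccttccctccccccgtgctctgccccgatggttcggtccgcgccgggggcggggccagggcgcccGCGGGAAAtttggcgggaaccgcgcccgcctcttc
E2F2 (chr1:23531234-23531383, minus strand): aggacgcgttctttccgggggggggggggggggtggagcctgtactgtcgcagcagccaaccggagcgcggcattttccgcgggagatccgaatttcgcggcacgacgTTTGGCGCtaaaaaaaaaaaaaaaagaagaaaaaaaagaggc
UHRF1 (chr19:4909351-4909500, plus strand): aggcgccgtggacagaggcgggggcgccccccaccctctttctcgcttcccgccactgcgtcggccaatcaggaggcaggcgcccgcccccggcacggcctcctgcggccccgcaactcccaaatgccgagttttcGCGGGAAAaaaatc
E2F1 (chr20:33686386-33686535, minus strand): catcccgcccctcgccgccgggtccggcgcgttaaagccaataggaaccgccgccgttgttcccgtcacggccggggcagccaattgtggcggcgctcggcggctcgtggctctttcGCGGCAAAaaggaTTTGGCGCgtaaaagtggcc
LIG1 (chr19:48170345-48170494, minus strand): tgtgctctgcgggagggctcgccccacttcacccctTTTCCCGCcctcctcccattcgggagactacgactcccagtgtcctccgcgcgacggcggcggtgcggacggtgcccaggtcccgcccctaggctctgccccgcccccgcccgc
POLE (chr12:132687343-132687492, minus strand): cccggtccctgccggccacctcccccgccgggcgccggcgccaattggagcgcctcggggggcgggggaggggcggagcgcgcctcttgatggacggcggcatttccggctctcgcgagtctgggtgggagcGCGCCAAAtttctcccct

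The whole RefSeq window runs from 250 bases before to 50 bases after the start site. In it, 27 of the 44 members with a promoter entry (61.4%) held at least 1 E2F match, against 3.99% of all 27305 genes. Counted by promoter, 28 of the members' 64 start sites did (43.8%), against 3.31% of all 35116 promoters in the table. Other DNA replication genes outside the 52, such as ORC and CHAF1 subunits, held a match in 17 of 48 genes, and G2 and mitosis genes in 2 of 15. CCAAT, the box bound by NF-Y, was searched on both strands as well. It stood in 28 of 44 members (63.6%) and in 39.7% of all 27305 genes. These are letter matches in the reference, and binding was not measured.

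The conversion rate is the share of sequenced T bases that were read as C in a gene's reads, and a higher rate means that more of the RNA present was made during labelling. With vehicle, the median over the 46 members with a mean of at least 10 CPM was 5.53%, beside 5.61% over all 6293 genes at that level, and 22 of the 46 lay above the all-gene median. The members spread widely around it, from 0.18% for POLA1 to 10.3% for CDT1. The 40 other DNA replication genes at that level had a median of 6.16%, and the 19 G2 and mitosis genes had a median of 7.25%, with 17 of the 19 above the all-gene median. No test was made between these lists. The conversion files give no base coverage, so no interval could be set on a single rate. Reads per member ran from 24 to 62 per library for CCNE1 up to 2294 to 5280 for MCM7.

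**Figure D1:**
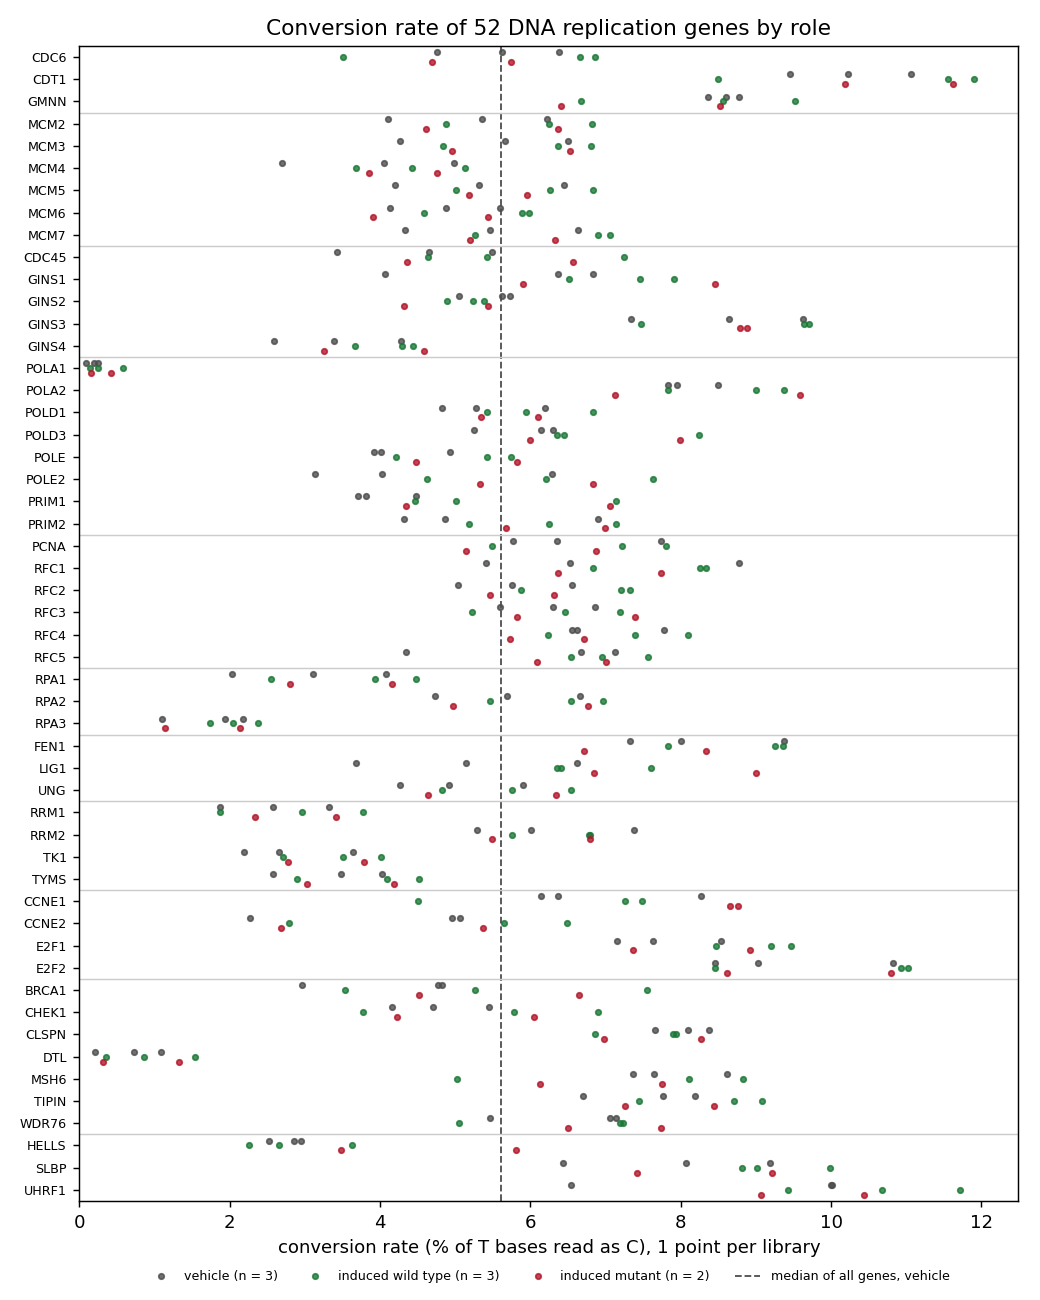
Conversion rate (x axis, % of T bases read as C) of the 52 members (y axis, grouped by role between grey lines), with 1 point per library coloured by group; the dashed line is the 5.61% median of all genes with vehicle. CDT1 and E2F2 lie to the right of the line in every library. MCM4 lies to its left in every library, and the other helicase genes straddle it. POLA1, DTL and RPA3 lie far to its left.

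Among the licensing genes, CDT1, which brings the MCM helicase to origins and is destroyed once S phase begins, had conversion rates of 9.46%, 10.2% and 11.1% in vehicle libraries A, B and C. Its rate was above the library's all-gene median in 8 of 8 libraries, by 1.64 to 2.02 times. CDT1 RNA was at 40.8 ± 5.20 CPM (SD, n = 3) with vehicle. GMNN, the inhibitor of CDT1, converted at 8.58% ± 0.21 and was at 25.7 ± 4.92 CPM. CDC6, the loader ATPase that works with CDT1, was lower in rate, at 5.59% ± 0.82 with 19.9 ± 4.73 CPM.

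The 6 helicase subunits formed a tight group, with mean rates of 3.91% to 5.48% with vehicle, all below the all-gene median. MCM2, MCM3 and MCM5 were at 157 ± 21.8, 151 ± 28.4 and 156 ± 30.5 CPM, with rates of 5.23%, 5.48% and 5.32%. MCM4 converted least of the 6, at 3.91% ± 1.15 with 75.2 ± 15.8 CPM, and stayed below the library median in 8 of 8 libraries. MCM6 was at 92.7 ± 14.4 CPM and 4.87% ± 0.73. MCM7 was at 313 ± 14.0 CPM and 5.48% ± 1.15, and was above the library median in 5 of 8 libraries.

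The partners that switch the helicase on were less alike. CDC45 was at 42.9 ± 1.183 CPM and converted at 4.52% ± 1.04. GINS3 had the highest rate of the 4 GINS subunits, 8.54% ± 1.15 at 20.1 ± 4.20 CPM, and GINS4 the lowest, 3.42% ± 0.85 at 23.1 ± 5.43 CPM. GINS1 converted at 5.76% ± 1.48 with 12.6 ± 2.61 CPM, and GINS2 at 5.47% ± 0.37 with 30.0 ± 3.83 CPM. Subunits of 1 tetramer thus differed in rate by more than their SDs, at the ends of the range.

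The polymerase genes included the lowest rate of the whole set. POLA1, the catalytic subunit of the polymerase that starts each strand, read 0.09%, 0.20% and 0.25% in vehicle libraries A, B and C, at 390, 328 and 281 CPM. The next-lowest polymerase rate, that of PRIM1, was 4.00%. In GENCODE 29, POLA1 overlaps EEF1B2P3, a processed pseudogene of the translation factor EEF1B2 on the opposite strand, and EEF1B2 converted at 0.73% to 1.80% over the 8 libraries. Whether the counting separated strands was not given in the sources used here, so the POLA1 values are uncertain, and the part of the pseudogene was not tested. POLA1's partner POLA2 converted at 8.09% ± 0.35 with 23.8 ± 5.17 CPM.

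The primase subunits PRIM1 and PRIM2, which lay the RNA primers, were at 5.39 ± 0.80 and 8.24 ± 1.59 CPM and converted at 4.00% ± 0.41 and 5.36% ± 1.36. POLD1, the catalytic subunit of the lagging-strand polymerase, was at 73.6 ± 1.45 CPM and 5.43% ± 0.70. Its accessory subunit POLD3 was at 9.68 ± 4.11 CPM and 5.90% ± 0.56. POLE, the catalytic subunit of the leading-strand polymerase, converted at 4.29% ± 0.55, and its partner POLE2 at 4.48% ± 1.63 with 7.47 ± 0.95 CPM. POLE stayed below the library median in 8 of 8 libraries.

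The clamp and its loader lay together on the other side of the median. PCNA, the sliding clamp, was at 98.8 ± 17.9 CPM and converted at 6.62% ± 1.01. The loader subunits RFC1 to RFC5 had mean rates of 5.78% (RFC2) to 6.98% (RFC4), and RFC1, RFC3 and RFC5 converted at 6.90%, 6.26% and 6.05%. Their levels were 17.6 ± 4.39 CPM for RFC1, 35.5 ± 1.52 for RFC2, 13.0 ± 3.84 for RFC3, 17.1 ± 3.82 for RFC4 and 19.3 ± 5.59 for RFC5. All 6 means were above the all-gene median, whereas all 6 helicase means were below it.

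The subunits of RPA, which coats single-stranded DNA, differed from each other. RPA3, its smallest subunit, converted at 1.10%, 1.94% and 2.18% in vehicle libraries A, B and C, where it stood at 40.0, 27.4 and 23.7 CPM. RPA1 converted at 3.07% ± 1.03 with 85.1 ± 10.45 CPM, and RPA2 at 5.69% ± 0.96 with 33.2 ± 2.78 CPM. RPA3 overlaps UMAD1, a protein-coding gene on the opposite strand.

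Of the genes that finish the lagging strand, FEN1, the flap nuclease, converted fastest at 8.23% ± 1.05 with 94.1 ± 7.76 CPM. LIG1, the ligase that seals the fragments, was at 5.15% ± 1.47 with 53.5 ± 11.01 CPM. UNG, which removes uracil from DNA, was at 5.03% ± 0.83 with 41.1 ± 6.16 CPM.

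Nucleotide supply genes were mostly slow. RRM1, the large subunit of ribonucleotide reductase, converted at 2.59% ± 0.72 with 102 ± 1.49 CPM, whereas RRM2, its cell-cycle-controlled partner, converted at 6.23% ± 1.06 with 54.1 ± 12.7 CPM. TK1, thymidine kinase, was at 2.83% ± 0.74, and TYMS, thymidylate synthase, at 3.36% ± 0.73 with 188 ± 8.67 CPM. RRM1, TK1 and TYMS were below the library median in 8 of 8 libraries, and RRM2 was above it in 7.

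The E2F regulators were at the fast end. E2F2 converted at 8.45%, 9.03% and 10.8% in vehicle libraries A, B and C, and E2F1 at 7.15%, 7.63% and 8.54%. Both were above the library median in 8 of 8 libraries. E2F1 stood at 48.4 ± 5.02 CPM and E2F2 at 62.2 ± 17.8. The cyclins that carry cells into S phase had few reads: CCNE1 was at 3.27 ± 0.28 CPM with 6.93% ± 1.17, and CCNE2 at 6.06 ± 2.04 CPM with 4.10% ± 1.58.

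In the checkpoint and fork group, CLSPN, the adaptor that activates CHEK1, converted at 8.04% ± 0.36 with 11.5 ± 6.01 CPM. MSH6, a mismatch sensor, converted at 7.88% ± 0.66 with 14.8 ± 5.01 CPM, and TIPIN, a fork protection factor, at 7.55% ± 0.77 with 10.1 ± 2.04 CPM. These were faster than CHEK1 at 4.77% ± 0.64 with 25.5 ± 2.82 CPM and the repair gene BRCA1 at 4.18% ± 1.06 with 18.0 ± 1.68 CPM. WDR76 was at 8.27 ± 3.13 CPM and 6.56% ± 0.95. DTL, the adaptor of the ligase that degrades CDT1, was the exception, reading 0.20%, 0.73% and 1.09% in vehicle libraries A, B and C at 134, 106 and 95.5 CPM.

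DTL overlaps RPL21P28, a processed ribosomal protein pseudogene on the opposite strand. The pseudogene's own row stood at 119 CPM in vehicle library A and 42.5 CPM in induced wild-type library C, the same 2 libraries at the high and low ends as for DTL among the wild-type line's 6. Its conversion rate was 1.00% to 1.39%. The part of these reads in the DTL values was not tested. In all, 34 of the 52 members overlap another annotated gene, 17 of them a protein-coding gene and 9 a processed pseudogene.

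The last group serves chromatin behind the fork. UHRF1, which carries DNA methylation to new strands, converted at 8.85% ± 2.001, and SLBP, the histone mRNA binding protein, at 7.90% ± 1.39 with 40.0 ± 10.8 CPM. HELLS, a chromatin remodeller, was slow at 2.77% ± 0.22 with 17.7 ± 5.65 CPM.

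The comparison of induced wild type with vehicle asks how these RNAs differed after 6 h of doxycycline-induced HMGN1; doxycycline and HMGN1 cannot be told apart in it. In all reads, limma on log2(CPM + 1), adjusted by Benjamini-Hochberg over 12462 genes, called 0 of 52 members, and 0 had an unadjusted p under 0.05. It called 0% of all genes, of which 117 had an unadjusted p under 0.05. On the recovered reads edgeR and DESeq2 also called 0 members, beside 0% and 0.016% of all genes. The members' median difference was 0.08 on the log2 scale, with 36 above 0, beside 0.09 for all genes. CLSPN had the smallest p among members that were higher. It read 5.29, 11.8 and 17.3 CPM with vehicle and 15.0, 12.4 and 24.2 CPM in induced libraries A, B and C.

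Vehicle library A was the lowest for CLSPN, and the groups overlapped. The difference was 0.63 (SE 0.37, adjusted p = 0.992 by limma) with all libraries and 0.20 without vehicle library A. The other members with the smallest p that were higher were WDR76 (0.40, SE 0.29) and POLD3 (0.48, SE 0.38). Those that were lower were RPA3 (-0.35, SE 0.24), DTL (-0.27, SE 0.21) and MCM7 (-0.14, SE 0.13), each with adjusted p = 0.992. Without vehicle library A these became 0.13 for WDR76, 0.12 for POLD3, -0.14 for RPA3 and -0.13 for both DTL and MCM7. Without induced wild-type library C, POLD3 was 0.22, CLSPN 0.36, RPA3 -0.19 and DTL -0.16. The groups did not overlap for MCM7, at 298 to 325 CPM with vehicle and 273 to 292 CPM induced, or for RRM1, at 100 to 103 and 84.0 to 98.2 CPM. Those were 2 members lower without overlap and 0 higher, beside 1.52% and 2.51% of all genes.

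**Figure D2:**
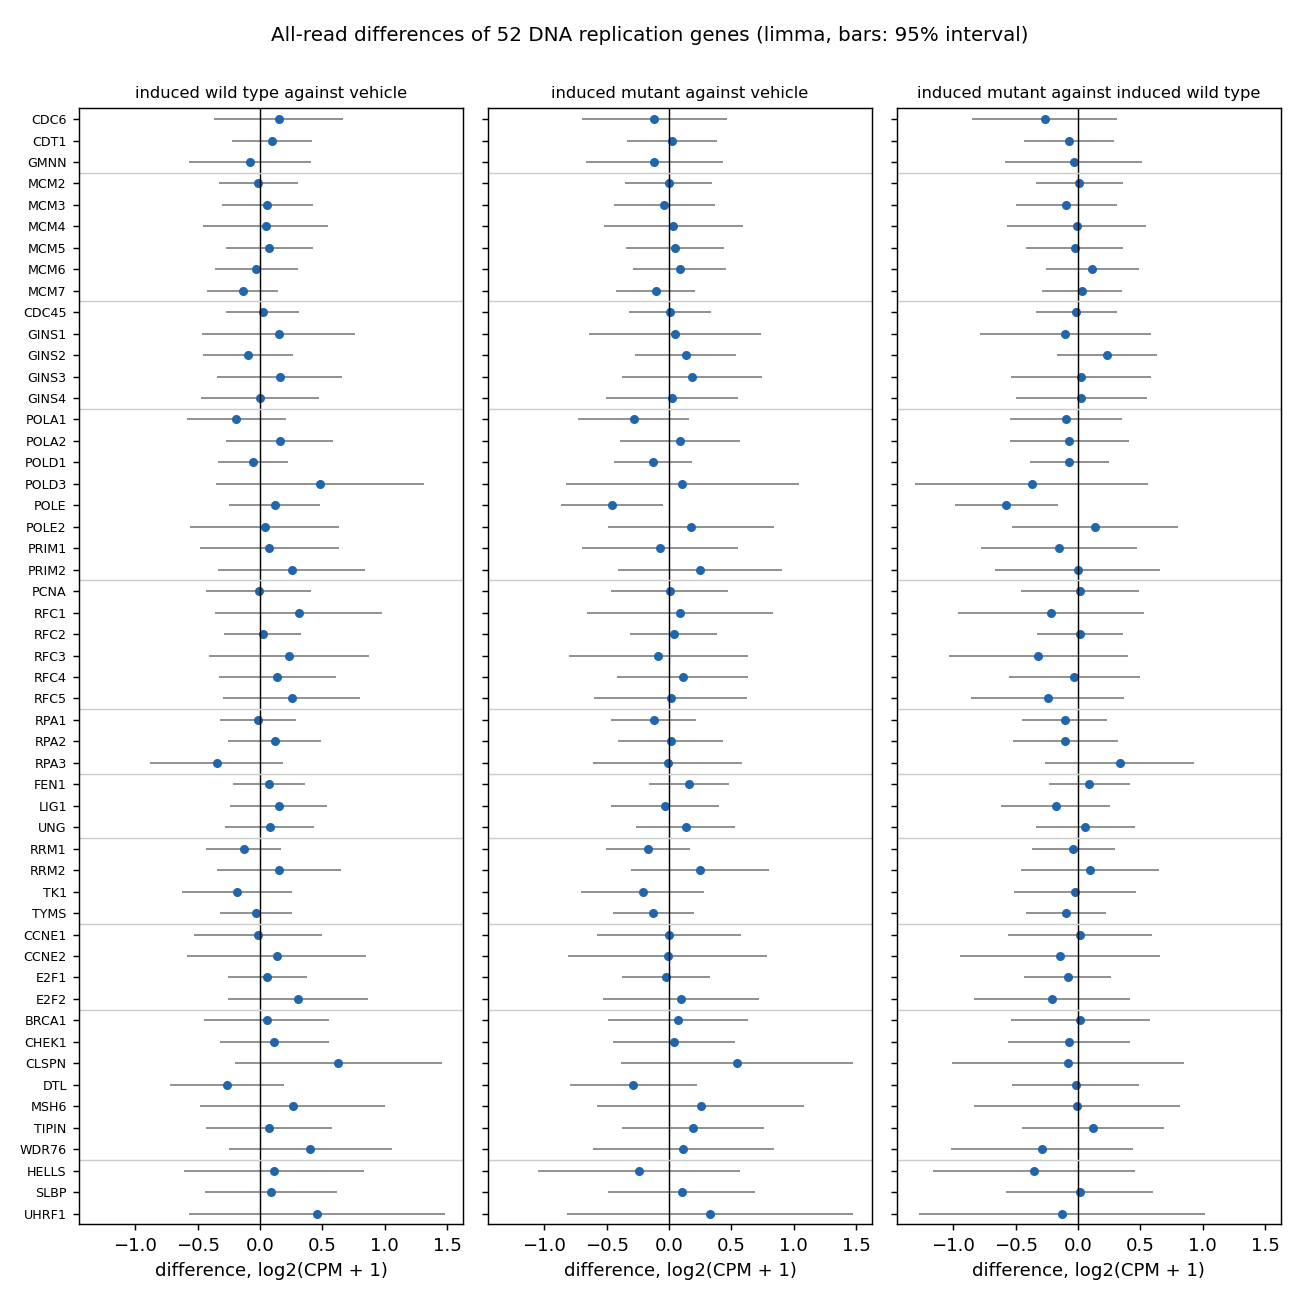
Difference in log2(CPM + 1) (x axis) for the 52 members (y axis, by role) in the 3 comparisons; points are limma estimates from 8 libraries and bars their unadjusted 95% intervals. The bars of POLE lie to the left of 0 in both mutant panels, and no other bar misses 0.

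The comparison of induced mutant with vehicle gave 0 of 52 members called by limma in all reads, with 1 unadjusted p under 0.05, that of POLE. Limma called 0.0321% of all genes, and 467 of 12462 had an unadjusted p under 0.05. EdgeR and DESeq2 called 0 members, again with 1 unadjusted p under 0.05, beside 0.0241% and 0.61% of all genes. Unadjusted, 765 and 643 of 12462 genes were under 0.05. POLE read 70.5, 99.9 and 91.8 CPM in vehicle libraries A, B and C, 97.6, 81.9 and 104 CPM in the induced wild type, and 66.2 and 59.6 CPM in mutant libraries A and B. Both mutant libraries were below all 6 libraries of the wild-type line.

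POLE differed by -0.46 (SE 0.18) between mutant and vehicle, with adjusted p = 1.0 by limma. Between induced mutant and induced wild type it differed by -0.57 (SE 0.18), also with adjusted p = 1.0. These 2 comparisons share the mutant libraries, and neither passed. POLE new RNA, the product of CPM and conversion rate, differed by -0.36 (SE 0.18, adjusted p = 1.0) between mutant and induced wild type, where the libraries, before centring, overlapped at 3.85 and 2.67 against 5.29, 3.45 and 5.94. Its conversion rate was 5.82% and 4.48% in mutant libraries A and B, overlapping the 3.92% to 4.93% of vehicle and the 4.22% to 5.74% of the induced wild type as deposited. Divided by each library's all-gene median, it was 0.891 and 0.864 in the mutant, above the 0.704 to 0.857 of vehicle and the 0.815 to 0.845 of the induced wild type. New RNA divided in the same way was lower in the mutant without overlap, at 3.90 to 3.94 against 4.52 to 5.33 in the induced wild type.

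Of the other members, POLD1, RRM1 and TYMS also lay below vehicle without overlap in the mutant, which makes 4 with POLE and 0 above, beside 11.4% and 4.61% of all genes. Their differences were small, at -0.13 (SE 0.14), -0.17 (SE 0.15) and -0.12 (SE 0.14). The other members of smallest p were POLA1 (-0.28, SE 0.20), DTL (-0.29, SE 0.23), CLSPN (0.54, SE 0.42), FEN1 (0.16, SE 0.15) and RRM2 (0.25, SE 0.25), none of which passed.

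Set against the induced wild type, which carried the same doxycycline, the mutant again gave 0 of 52 members called by limma, edgeR or DESeq2, each with 1 unadjusted p under 0.05. The tools called 0.0321%, 0.0241% and 0.104% of all genes in that order. Unadjusted, 343, 420 and 295 of 12462 genes were under 0.05. Without overlap, POLE, LIG1 and CDT1 were lower and GINS2 was higher, which is 3 and 1 members beside 13.2% and 1.79% of all genes. GINS2, a helicase partner, read 28.5, 29.1 and 25.9 CPM in the wild type and 29.3 and 36.6 CPM in the mutant, a difference of 0.23 (SE 0.18). RPA3 (0.33, SE 0.27), MCM6 (0.11, SE 0.17), CDC6 (-0.27, SE 0.26) and RFC3 (-0.32, SE 0.32) complete the members of smallest p, with adjusted p = 1.0 by limma throughout.

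The direction of the set as a whole depended on scaling and on single libraries, and the all-gene median moved the same way. With the deposited scaling, the mutant against induced wild type had a median of -0.04 and 17 of 52 members above 0, while all genes had a median of -0.12. With edgeR's TMM scaling, the median became 0.11 with 40 members above 0, and the all-gene median 0.01. In the wild type against vehicle the median went from 0.08 to -0.03 and the count above 0 from 36 to 22, with the all-gene median going from 0.09 to -0.0015. Mutant against vehicle was at 0.03 with the deposited scaling and 0.06 with TMM, beside -0.04 and -0.02 for all genes. Without vehicle library A, the members' median fell below 0 in both comparisons with vehicle. It was -0.11 with 13 of 52 above 0 for the mutant, beside -0.15 for all genes. For the wild type it was -0.03 with 12 above 0, beside -0.04 for all genes. Without mutant library A, mutant against vehicle was at -0.04 with 18 above 0, beside -0.10 for all genes. Without induced wild-type library C, wild type against vehicle was at -0.04 with 17 above 0, beside -0.02 for all genes. Mutant against wild type was then at 0.03 with 29 above 0, beside -0.02 for all genes.

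Converted reads, deposited as FPKM for reads that carry conversions, tested 44 members with a mean of at least 1 FPKM. Limma called 0 of them in each of the 3 comparisons, with 0, 2 and 0 unadjusted p under 0.05 for wild type against vehicle, mutant against vehicle and mutant against wild type. All genes called were 0%, 0.401% and 0%. Of the 5737 genes tested, 455, 678 and 169 had an unadjusted p under 0.05 in the same order. The 2 members were the E2F activators. E2F2 read 0.56, 3.22 and 5.06 FPKM with vehicle, 2.27, 5.87 and 10.3 FPKM in the induced wild type, and 10.7 and 5.89 FPKM in the mutant.

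E2F1 read 2.59, 4.42 and 3.66 FPKM with vehicle, 4.92, 4.90 and 7.97 FPKM in the induced wild type, and 6.80 and 7.81 FPKM in the mutant. For both genes, the mutant libraries were above all vehicle libraries and overlapped the induced wild type. Mutant against vehicle differed by 1.40 (SE 0.57, adjusted p = 0.340) for E2F2 and by 0.88 (SE 0.36, adjusted p = 0.341) for E2F1. Without vehicle library A the E2F2 difference was 0.83. In all reads the same contrast was 0.10 (SE 0.28) for E2F2 and -0.03 (SE 0.16) for E2F1. E2F1 was also higher without overlap in the wild type against vehicle, by 0.60 (SE 0.33, adjusted p = 0.659). These differences were not centred by library. With each library centred on its median, limma gave 1 of 44 members an unadjusted p under 0.05 in mutant against vehicle. Of all 5737 genes, 863 had one. Uncentred and without vehicle library A, it was 0 of 45 members and 584 of 5817 genes.

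Beside the E2F genes, LIG1, POLE2, CDC45 and RFC4 were above vehicle without overlap in the mutant, and RFC3 was below. That made 6 members above and 1 below, beside 20.4% and 7.81% of all genes. The wild type had E2F1 and PRIM2 above vehicle without overlap, beside 10.7% of all genes, and 0 members below, beside 1.26%. Mutant and wild type overlapped for all 44 members, beside 5.18% of all genes higher and 11.8% lower without overlap. The members' median differences were 0.23 for wild type and 0.16 for mutant against vehicle, with 34 and 28 of 44 above 0. All genes had medians of 0.23 and 0.17, so the set stood where the table stood. Between mutant and wild type the median was -0.09 with 16 of 44 above 0, beside -0.04 for all genes. With each library centred on its median, the members' medians were -0.11 for wild type and -0.10 for mutant against vehicle, with 19 and 16 of 44 above 0, beside -0.11 and -0.10 for all genes. Between mutant and wild type it was then -0.02 with 20 above 0, beside 0.03.

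The members with the smallest p in the converted table that remain to be given did not pass. In wild type against vehicle they were BRCA1 (0.71, SE 0.38) and RPA2 (0.80, SE 0.43) among the higher, and TK1 (-0.50, SE 0.37), POLD1 (-0.29, SE 0.30) and PCNA (-0.24, SE 0.29) among the lower. In mutant against vehicle they were LIG1 (0.66, SE 0.33), POLD1 (-0.40, SE 0.34), UNG (-0.54, SE 0.49) and TK1 (-0.39, SE 0.42). In mutant against wild type they were GMNN (-0.77, SE 0.51), UNG (-0.61, SE 0.49), RFC1 (-0.56, SE 0.46), LIG1 (0.43, SE 0.33), E2F2 (0.51, SE 0.57) and RFC4 (0.34, SE 0.39).

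Conversion rates were compared after centring each library on its median, since the libraries differed in overall labelling. Limma called 0 of 46 members in each comparison and 0% of 6293 genes. At an unadjusted p under 0.05 were 3, 4 and 2 members in wild type against vehicle, mutant against vehicle and mutant against wild type. Of the 6293 genes, 273, 533 and 311 were under 0.05 in the same order. In mutant against vehicle, LIG1 had the smallest p among the members. Its rate was 3.68%, 5.14% and 6.62% with vehicle, 6.41%, 6.35% and 7.60% in the induced wild type, and 8.997% and 6.84% in the mutant. As deposited, the mutant libraries lay above vehicle without overlap, and the wild type overlapped both. Divided by each library's all-gene median, the mutant was at 1.38 and 1.32, above the 1.00 to 1.23 of the wild type and the 0.784 to 1.03 of vehicle.

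LIG1 differed by 0.53 (SE 0.12) on the log2(% + 0.5) scale between mutant and vehicle, with adjusted p = 0.313 by limma. It differed by 0.25 (SE 0.11, adjusted p = 0.966) between wild type and vehicle. LIG1 was at 53.0 and 49.99 CPM in the mutant, within the 41.1 to 62.1 CPM of vehicle, so the rates did not overlap while the levels did. Its new RNA was 1.51, 3.19 and 3.79 with vehicle, 3.66, 3.38 and 4.99 in the wild type and 4.77 and 3.42 in the mutant, a mutant against vehicle difference of 0.54 (SE 0.21, adjusted p = 0.538).

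HELLS was similar in size but rested more on 1 library. Its rate was 2.86%, 2.52% and 2.94% with vehicle, 2.65%, 2.25% and 3.62% in the wild type, and 5.81% and 3.48% in the mutant. As deposited, mutant library A was above all others, and mutant library B lay above vehicle but within the wild type. Relative to the library median, mutant libraries A and B, at 0.888 and 0.671, were both above the other 6, where the wild type ran from 0.414 to 0.515 and vehicle from 0.452 to 0.609. The differences were 0.55 (SE 0.16, adjusted p = 0.383) against vehicle and 0.68 (SE 0.16, adjusted p = 0.718) against the wild type. Without mutant library A the first was 0.37 and the second 0.50.

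In the rates as deposited, LIG1 and HELLS were the 2 members above vehicle without overlap in the mutant, with 0 below, beside 3.78% and 2.97% of all genes. POLD3 was the only such member in the wild type, at 6.35% to 8.25% against 5.26% to 6.31%, beside 3.46% of all genes, with 0 below, beside 0.111%. Relative to the library median it overlapped, at 0.990 to 1.25 against 0.978 to 1.12. In the deposited rates, mutant and wild type overlapped for all 46 members, beside 1.06% of all genes higher and 6.88% lower without overlap.

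These counts changed once each rate was divided by its library's all-gene median, a comparison added after seeing the data. Mutant against wild type then had POLE, RFC3, LIG1 and HELLS higher without overlap and MCM6, MCM7, PCNA and FEN1 lower, which is 4 and 4 of 46 beside 8.91% and 11.4% of all genes. FEN1 was at 1.27 and 1.29 against 1.31 to 1.51, and MCM6 at 0.831 and 0.753 against 0.851 to 0.919. Mutant against vehicle had 5 higher and 9 lower, beside 9.57% and 13.6%, and wild type against vehicle 0 higher and 3 lower (PCNA, RFC3 and MSH6), beside 4.61% and 4.69%. None of these members was called by limma on the centred rates.

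GMNN (-0.27, SE 0.11) and PCNA (-0.20, SE 0.085) had lower centred rates in mutant against vehicle, and MSH6 (-0.28, SE 0.11) and CLSPN (-0.23, SE 0.10) in wild type against vehicle, each with an unadjusted p under 0.05. Of smaller note were FEN1 (-0.19, SE 0.09) and GINS1 (0.23, SE 0.12) in mutant against vehicle. In wild type against vehicle GINS1 (0.20, SE 0.10), CDC45 (0.18, SE 0.10) and GINS2 (-0.22, SE 0.10) were next.

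In mutant against wild type, LIG1 (0.27, SE 0.12) and RFC3 (0.14, SE 0.09) were higher in rate, and FEN1 (-0.14, SE 0.09), MCM6 (-0.14, SE 0.09) and RFC2 (-0.12, SE 0.09) lower. None passed. The members' median differences in centred rate were 0.022, 0.0049 and 0.0023 in the 3 comparisons, beside -0.0039, -0.017 and -0.011 for all genes.

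**Figure D3:**
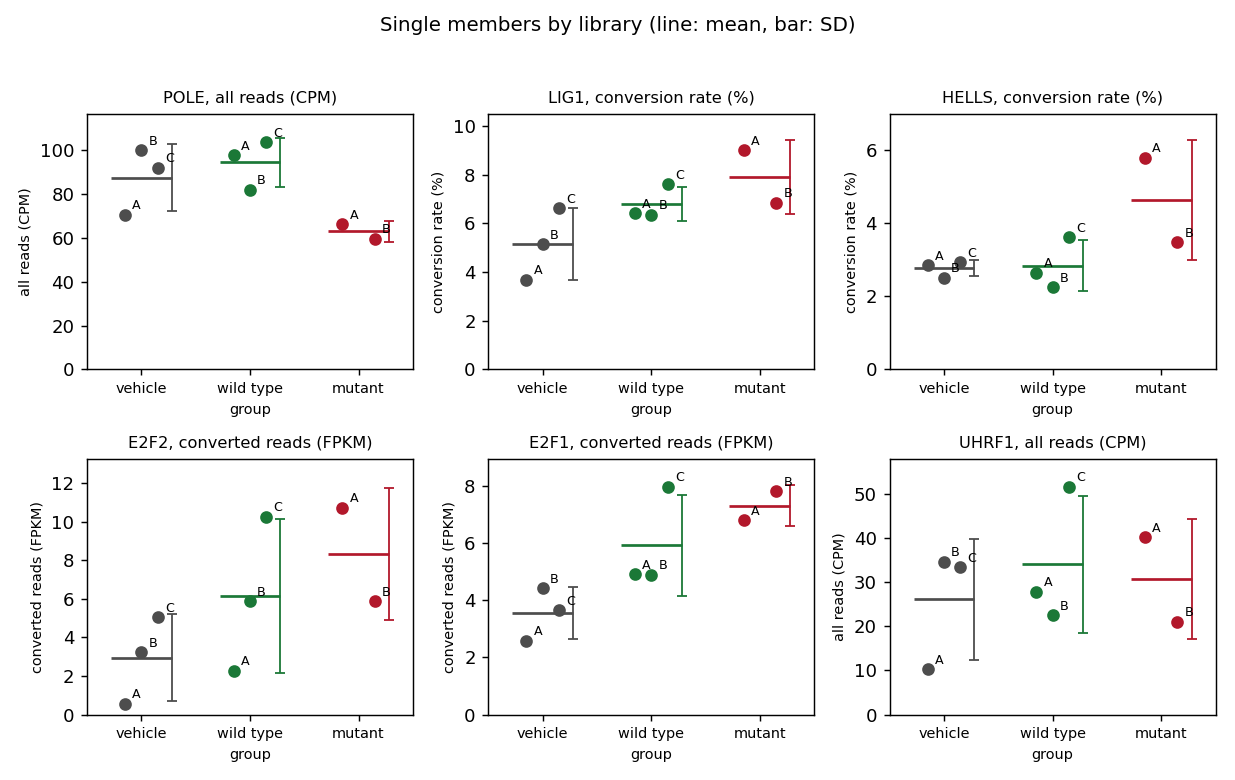
Values of 6 members by library (y axes, CPM, % of T bases or FPKM as titled) in the 3 groups (x axes); letters name libraries, horizontal lines are means and bars SD (n = 3, 3 and 2). POLE in the mutant sits at 59.6 and 66.2 CPM below the other 6 libraries, and UHRF1 is lowest in vehicle library A and highest in induced wild-type library C.

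New RNA, the product of CPM and conversion fraction, tested all 52 members. Limma called 0 in each comparison, with 0, 1 and 0 unadjusted p under 0.05, while all genes called were 0.0207%, 0.0414% and 0%. Of the 9660 genes tested, 301, 716 and 288 had an unadjusted p under 0.05 in the same order. The 1 member was LIG1, given above. The members' median differences were -0.0089, 0.061 and 0.058 in wild type against vehicle, mutant against vehicle and mutant against wild type, beside -0.037, -0.048 and 0.0021 for all genes, and 24, 32 and 39 of 52 were above 0. Without centring each library on its median, the medians were 0.24, 0.12 and -0.14 with 48, 38 and 10 of 52 above 0, beside 0.22, 0.01 and -0.19 for all genes.

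The next members in new RNA did not pass either. In wild type against vehicle they were GMNN (-0.40, SE 0.19), RRM1 (-0.25, SE 0.17), CCNE1 (-0.35, SE 0.24), LIG1 (0.31, SE 0.19), POLD3 (0.41, SE 0.25) and CLSPN (0.27, SE 0.21). In mutant against vehicle they were POLE2 (0.47, SE 0.24), PRIM2 (0.39, SE 0.22), GMNN (-0.38, SE 0.21), POLE (-0.26, SE 0.18) and CDC6 (-0.27, SE 0.23). In mutant against wild type they were CCNE1 (0.53, SE 0.26), HELLS (0.45, SE 0.27), GINS3 (0.21, SE 0.17), RFC1 (-0.16, SE 0.22) and RFC5 (-0.14, SE 0.20). In uncentred new RNA, GINS2 alone was without overlap, lower in the wild type than with vehicle and higher in the mutant than in the wild type, beside 0.321% and 0.621% of all genes. No member was higher in the wild type than with vehicle (2.05% of all genes), higher or lower in the mutant than with vehicle (3.2% and 5.57%), or lower in the mutant than in the wild type (9.27%) without overlap. Relative to the library median, 0 members were higher and 3 lower in wild type against vehicle (RRM1, GINS3 and GMNN), beside 4.37% and 3.69% of all genes. Mutant against vehicle then had 9 higher and 4 lower, beside 10.9% and 12.8%. Mutant against wild type had 5 higher (MCM4, RRM2, GINS3, GINS4 and CCNE1) and 2 lower (POLE and RFC5), beside 6.77% and 9.27%.

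The genes of replication outside the 52 gave the same count. Of 58 found, 0 were called in all reads in any comparison. They had 0, 3 and 3 unadjusted p under 0.05 in wild type against vehicle, mutant against vehicle and mutant against wild type. Of all 12462 genes, 117, 467 and 343 had one in the same order. The 20 G2 and mitosis genes had 0 called and 0 unadjusted p under 0.05 in these comparisons. With the deposited scaling, their median in mutant against wild type was -0.34, with 1 of 20 above 0. The 52 members had -0.04 with 17 above 0, and the 58 other replication genes -0.12 with 12 above 0. All genes had -0.12, with 26.6% above 0. With TMM scaling, 40 of the 52 members were above 0. The difference between these lists was not tested.

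Libraries within a group differed widely. Vehicle library A was the lowest of the 8 libraries for 30 of 52 members (57.7%), beside 45.9% of the 6293 genes with a mean of at least 10 CPM. Induced wild-type library C was the highest for 32 members (61.5%), beside 46.8% of those genes. UHRF1 read 10.2 CPM in vehicle library A, 34.6 and 33.4 CPM in B and C, 27.9, 22.5 and 51.6 CPM in the induced wild type, and 40.2 and 21.03 CPM in the mutant. Its highest library was 5.04 times its lowest, and all 3 groups overlapped. At the other end CDC45 ran from 40.4 to 46.0 CPM over the 8 libraries.

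**Figure D4:**
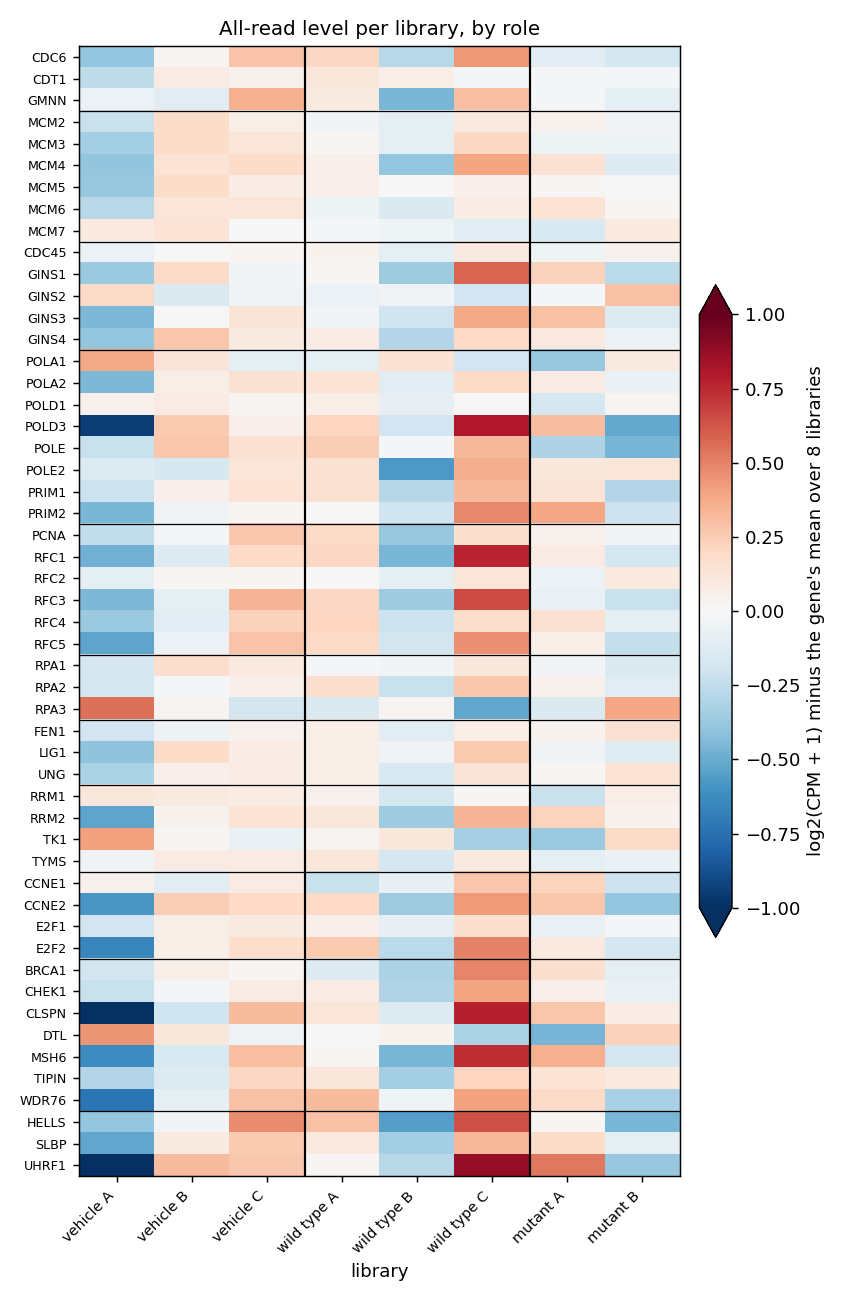
All-read level of the 52 members (y axis, by role) in each of the 8 libraries (x axis), as log2(CPM + 1) minus the gene's mean over the libraries; blue is below and red above the mean, and colours end at 1 either way. Vehicle A is blue for most members and wild type C red, while POLA1, DTL, RPA3 and TK1 run the other way.

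The size of this library difference varied with the conversion rate. Between vehicle library A and the mean of B and C, the members' median difference was -0.39 on the log2(CPM + 1) scale and 44 of 52 were below 0, beside -0.33 and 72.9% of the 6293 genes. The members farthest below were UHRF1 (-1.64), CLSPN (-1.31) and POLD3 (-1.10). RPA3 (0.63), TK1 (0.43), DTL (0.40) and POLA1 (0.36) were highest above 0, and all 4 have low conversion rates. TK1 read 185, 141 and 133 CPM in vehicle libraries A, B and C.

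Across 46 members, Spearman's rank correlation between this difference and the conversion rate was -0.48, and across the 6293 genes it was -0.50. The same measure had the opposite sign for induced wild-type library C against A and B, at 0.42 for the members and 0.41 for all genes. For mutant library A against B it was 0.42 and 0.46. Genes are not independent replicates, and the rate and the level come from the same libraries, so these are descriptions. Vehicle library A had the lowest overall conversion and induced wild-type library C the highest, and the part of labelling in these differences was not tested.

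**Figure D5:**
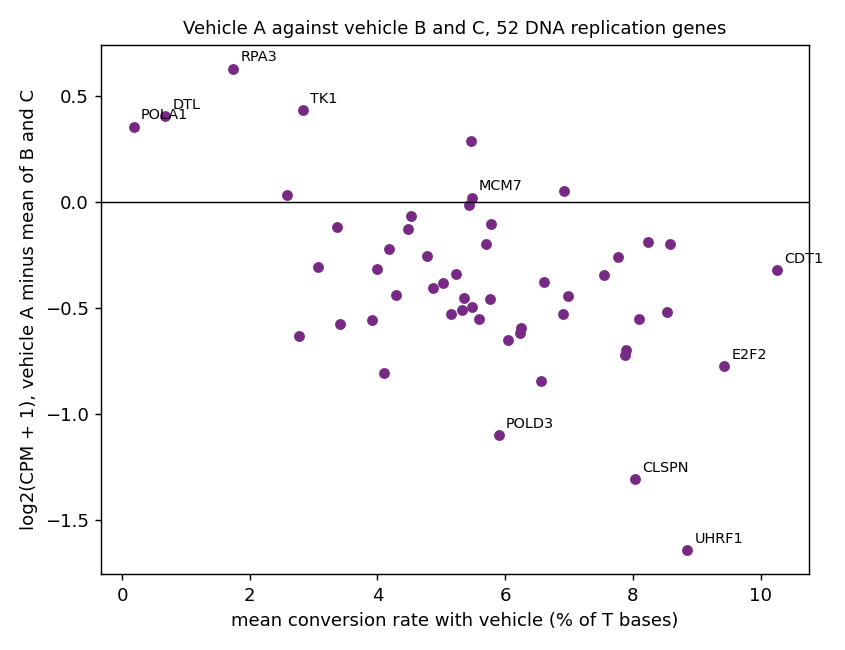
Difference in log2(CPM + 1) between vehicle library A and the mean of vehicle B and C (y axis) against mean conversion rate with vehicle (x axis, % of T bases) for the 52 members, 1 point per gene. RPA3 and TK1, both slow, lie above 0 and UHRF1 and CLSPN, both fast, below it, while the slow genes HELLS, GINS4 and MCM4 also lie below 0, at -0.63, -0.57 and -0.56.

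The deposited FPKM of converted reads and the new RNA product ranked the members differently. Over the 42 members with at least 10 CPM with vehicle and a gene structure in GENCODE 29, Spearman's rank correlation between them was 0.36, beside 0.34 over 5213 genes. FPKM per unit of new RNA ran from 0.0645 for FEN1, with 2.31 kb of introns, to 13.6 for RFC3, with 147 kb. CDT1 had a ratio of 0.178 and 2.81 kb of introns, and HELLS 7.07 and 53.2 kb. RPA3, with 80.1 kb, had 1.84, whereas RFC4, with 15.4 kb, had 4.20. Across the 42 members, Spearman's rank correlation of this ratio with intron length was 0.63. The part of introns in it was not tested. How converted reads were counted, and whether intronic reads entered, was not given in the sources used here, so levels in FPKM were not compared between members.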

How the data were processed

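SLAM-seq libraries of NALM6 cells were grouped by their titles into vehicle (3), induced wild type (3) and induced mutant (2). The authors deposited per-transcript CPM, a signal scaled to each library, with a conversion fraction per transcript, and a second table of converted-read FPKM values. The submitters' processing notes name GRCh37 and hg19; aligner and counter were not given in the sources used here. All 8 CPM columns gave whole reads (100.0% within 0.1 read). Rows with 1 read and conversions between 0 and 1 showed that the deposited fraction counts bases. Genes were joined by RefSeq accession, and the row with the highest mean was kept. Limma 3.58.1 (R 4.3.3) was fitted to all libraries without covariates on log2(value + pseudocount), with a mean filter: all reads 1 and 1, converted FPKM 1 and 1, new RNA 0.1 and 0.2, conversion percent 0.5 with at least 10 CPM. New RNA and conversion were centred on each library's median. P-values were adjusted by Benjamini-Hochberg over all genes at 0.05. The prior variance was given a trend with level after a fit without it had been seen; both are reported. EdgeR 4.0.16 and DESeq2 1.42.0 on the recovered reads were alternatives. The deposited unit was a normalized signal, so limma remained the main test. The scripts were tested on simulated data.

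The members and lists were chosen with earlier results of these data known. Named in the text are HMGN1, every member with level and conversion rate, and the 3 members of smallest p in each direction per comparison and measure; members without overlap in the deposited values are also named. EEF1B2, RPL21P28, UMAD1, the library differences, the intron lengths and the motif search were chosen after values were seen. Spread between replicates exceeded sampling noise (chi-square per degree of freedom 6.62 to 35.2), so no libraries were merged. Tables used RefSeq symbols, GENCODE 29 gene spans and RefSeq promoters on GRCh38.p14; no coordinate was moved between builds. Figures were drawn with matplotlib 3.10.9.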

Additional observations from a re-analysis of the deposited data

How the results depend on the processing

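No member was called by any of 198 fits, and all 236 alternative values of the main counts kept their side of the threshold; the smallest adjusted p was 0.0517. That was E2F2 in converted reads, mutant against vehicle, with the replicate letter as a block, where its adjusted p over the alternatives ran from 0.0517 to 0.999. The letters do not pair the libraries: correlations of same-letter deviations in all reads ran from -0.64 to 0.65. With the replicate block 0 members were called in each comparison, while all genes called in converted reads, mutant against vehicle, went from 23 to 149. Without the trend in the prior variance, an alternative added after seeing the data, that count was 0 and members called stayed 0. DESeq2 called 76 genes in all reads, mutant against vehicle, 13 in mutant against wild type and 2 in wild type against vehicle, where limma called 4, 4 and 0; 0 were members. In conversion, mutant against vehicle, 1 gene was called with at least 20 CPM and 0 at 10.

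Of 1167 refits of 72 named member differences, 1161 kept their direction. The 6 exceptions were small. Leaving out each library in turn, the differences ran from -0.63 to 0.061 for DTL in all reads, mutant against vehicle. In converted reads, mutant against vehicle, they ran from -0.81 to 0.018 for TK1 and from -1.17 to 0.093 for UNG. In converted reads, mutant against wild type, they ran from -0.016 to 0.58 for RFC4 and from -1.24 to 0.018 for UNG. RRM1 in new RNA, wild type against vehicle, was 2.33e-04 without centring. The values above 0 came without mutant library A for DTL and without mutant library B for TK1 and UNG, and the one below 0 for RFC4 without wild-type library B. With 1 library left in the mutant group its spread is taken from the other groups. The members' median conversion rate with vehicle ran from 5.20% to 6.07% leaving out each vehicle library.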
